A study of Mus musculus with 5 samples.

Results

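The enzymes that make, convert and inactivate sex steroids and glucocorticoids inside the uterus were examined in mated females whose partners were young or aged. The genes were chosen by name: Hsd17b1, Hsd17b7, Hsd17b2, Hsd17b4, Hsd17b11, Akr1c18, Srd5a1, Hsd11b1, Sts and Sult1e1. Of these 10 genes, 8 were matched by symbol among the 28666 genes of the count table, and all 8 had enough counts to be tested. Sts, the steroid sulfatase, and Sult1e1, the estrogen sulfotransferase, were not analysed here.

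RNA of whole uteri was sequenced from ICR females aged 6 to 8 weeks. They had been caged with vasectomized C57BL/6 males, so that the seminal plasma (SP) they received held no sperm and no embryo was present. The males were 12 to 14 weeks old for the young-SP group (n = 3, replicates 1, 2 and 4) and 12 to 18 months old for the aged-SP group (n = 2, replicates 1 and 4), and the labels give the collection as 3.5 days after caging. The paper states that a young-SP sample was excluded as an outlier in clustering. The spread of the young-SP group is therefore that of the libraries kept. The comparison asks whether the uterine transcriptome before implantation differs between females exposed to SP of young and of aged males. The labels do not say whether each library came from 1 female, so p-values measure only the spread between these libraries. Nor do they say whether a shared replicate number pairs libraries of the 2 groups, so it is used only as a name.

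Steroid hormones reach the uterus in the blood, but the level that meets the receptors in a uterine cell is also set by enzymes in that cell. Some hydroxysteroid dehydrogenases work in pairs, with one enzyme making the active hormone by reduction and another returning it to a weak form by oxidation. The mouse uterus becomes receptive to an embryo under progesterone and a brief rise of estradiol, and the uterine stroma also responds to glucocorticoids, so the enzymes acting on these 3 hormones are of interest at this time.

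The total count per library lay between 15071914 and 16728601, and 17013 genes were tested. A gene varied between libraries of the same group by 25.1% of its mean beyond counting error (the biological coefficient of variation). Each pair of libraries differed by more than sampling noise, and chi-square over its degrees of freedom ran from 18.4 to 90.5. Young-SP replicate 1 stood apart from the rest of its group in the proteases Prss28 and Prss29 given below, and edgeR called 578 genes without it against 25 with all libraries. Aged-SP replicate 1 held the highest level of 5 of the 8 enzymes.

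The stretch of 250 bases before the RefSeq start site is shown for the 5 enzymes matched by symbol in the promoter table (RefSeq, GRCm38.p6), because they include the pair with the largest differences, Akr1c18 and Hsd11b1, and others to set beside them. Capitals mark 5 short motifs found on either strand: TATAA, the core of the TATA box; CCAAT, the CCAAT box; GGGCGG, the GC box; TGTTCT, a core shared by the progesterone, glucocorticoid and androgen receptors; and GGTCA, a core of the estrogen receptor site. The sequences read 5′ to 3′ along the gene.
Hsd17b7 promoter, chr1:169969206-169969455, minus strand: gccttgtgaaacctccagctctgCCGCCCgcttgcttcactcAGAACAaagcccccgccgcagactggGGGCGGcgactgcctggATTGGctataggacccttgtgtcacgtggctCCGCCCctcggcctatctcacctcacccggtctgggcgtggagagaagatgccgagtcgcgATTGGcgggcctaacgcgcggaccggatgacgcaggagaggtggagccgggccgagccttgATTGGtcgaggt
Hsd17b11 promoter, chr5:104021797-104022046, minus strand: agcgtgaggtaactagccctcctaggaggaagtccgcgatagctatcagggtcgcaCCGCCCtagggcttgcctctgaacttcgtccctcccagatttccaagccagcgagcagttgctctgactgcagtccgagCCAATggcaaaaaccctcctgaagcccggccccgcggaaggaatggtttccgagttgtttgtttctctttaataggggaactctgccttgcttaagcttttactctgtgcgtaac
Akr1c18 promoter, chr13:4150647-4150896, minus strand: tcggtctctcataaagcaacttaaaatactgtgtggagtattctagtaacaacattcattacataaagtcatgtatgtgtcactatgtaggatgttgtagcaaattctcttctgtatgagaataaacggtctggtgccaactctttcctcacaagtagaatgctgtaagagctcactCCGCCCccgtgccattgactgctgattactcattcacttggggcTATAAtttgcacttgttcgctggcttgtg
Srd5a1 promoter, chr13:69611464-69611713, minus strand: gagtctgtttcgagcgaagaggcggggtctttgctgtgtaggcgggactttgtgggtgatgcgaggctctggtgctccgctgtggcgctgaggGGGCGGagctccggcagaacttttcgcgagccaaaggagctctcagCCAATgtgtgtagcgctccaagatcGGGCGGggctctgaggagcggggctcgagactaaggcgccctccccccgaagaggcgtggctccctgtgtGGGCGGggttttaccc
Hsd11b1 promoter, chr1:193242361-193242610, minus strand: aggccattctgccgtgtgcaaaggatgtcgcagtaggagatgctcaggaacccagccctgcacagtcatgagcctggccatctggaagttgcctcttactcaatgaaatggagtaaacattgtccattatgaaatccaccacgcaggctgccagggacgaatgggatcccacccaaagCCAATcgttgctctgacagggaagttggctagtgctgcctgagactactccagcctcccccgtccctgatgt

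The Akr1c18 stretch was the only one of the 5 with TATAA, 29 bases before the start, and it also held a reversed GGGCGG at 73 bases. It had the lowest GC content, 41.6%, against 54.4% for Hsd11b1, 54.8% for Hsd17b11, 64.8% for Srd5a1 and 65.6% for Hsd17b7. Srd5a1 held 3 matches to GGGCGG, at 16, 86 and 157 bases, and Hsd17b7 also held 3, at 134, 182 and 227 bases. CCAAT was present before Hsd11b1, Hsd17b11, Srd5a1 and Hsd17b7, with 3 reversed copies in Hsd17b7. TGTTCT occurred only before Hsd17b7, as a reversed copy at 208 bases, and GGTCA in 0 of the 5. Among all 32851 promoters of the same length, 22.8% held TATAA, 33.9% CCAAT, 32.7% GGGCGG, 16.1% TGTTCT and 35.2% GGTCA. None of the searched motifs overlap by their letters in these 5 stretches, and a match is a description of letters only. The start used for Hsd11b1 lies 21715 bases downstream of the 5′ end of the gene as listed.

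Levels are given as CPM, which are counts divided by the TMM-scaled library total, and differences as log2 fold changes of the aged-SP over the young-SP group. The main test was the quasi-likelihood test of edgeR, two-sided, with Benjamini-Hochberg adjustment over all tested genes. Calls needed both an adjusted p under 0.05 and a log2 fold change beyond 1 in either direction. By edgeR, 0 of the 8 enzymes were called, where 0.147% of all tested genes were. At an unadjusted p under 0.05 there were 5 of the 8 (4 with higher and 1 with lower levels after aged SP), against 19.0% of all tested genes. With DESeq2's Wald test, the tool named in the study's methods, 2 of the 8 were called, Akr1c18 and Hsd11b1, both higher. Of the 17536 genes to which DESeq2 gave an adjusted p, 3.60% were called. By adjusted p alone DESeq2 passed 4 of the 8, adding Hsd17b11 and Hsd17b4, against 7.58% of the same genes.

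The groups did not overlap in CPM for 4 of the 8 enzymes (Akr1c18, Hsd17b11 and Hsd17b1 with aged-SP above young-SP, and Hsd17b4 below), against 38.8% of all tested genes. The log2 fold change was above 0 for 6 enzymes and below 0 for Hsd17b4 and Hsd17b7. Its median over the 8 was 1.04, beside 0.0072 over all tested genes, and was 0.48 without aged-SP replicate 1. The enzymes were chosen with earlier results of these data known, so this median is a description and was not tested. The plot of the enzymes by library shows several patterns. The groups lay apart for Hsd17b4 and Hsd17b11, and for Hsd17b1 at low counts. For Hsd11b1 and Srd5a1 the groups differed mainly through aged-SP replicate 1, and Akr1c18 was nearly silent in the young-SP group. For Hsd17b2 and Hsd17b7 the groups overlapped, with young-SP replicate 1 the highest library.

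**Figure D1:**
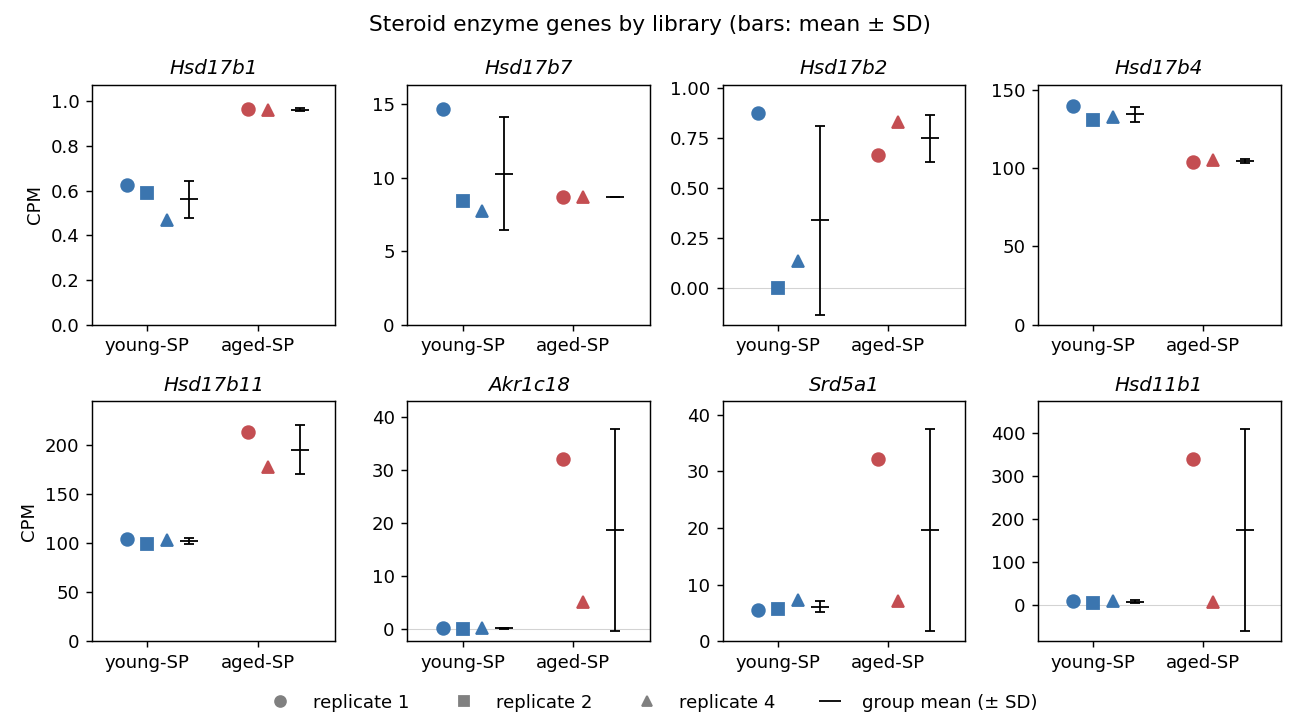
CPM of the 8 enzymes, one panel each with its own linear axis; blue points are young-SP libraries, red points aged-SP libraries, shapes give the replicate number, and bars are the group mean ± SD. Aged-SP replicate 1 lies far above the other 4 libraries for Hsd11b1 (340 CPM), Akr1c18 (32.1 CPM) and Srd5a1 (32.2 CPM), while both aged-SP libraries lie above the young-SP group for Hsd17b11.

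In whole uteri, more cells of a type and more RNA per cell cannot be told apart. Of the uterine gland markers, 5 of 6 were in the table, and their summed level was 2937 to 3952 CPM in the aged-SP libraries and 39.5 to 514 CPM in the young-SP libraries, with young-SP replicate 1 the highest of its group. Nearly all of the sum came from Prss28 (1446 and 764 CPM in aged-SP replicates 1 and 4, and 90.7, 0.355 and 0.267 CPM in young-SP replicates 1, 2 and 4) and Prss29 (2458 and 2137 CPM, and 385, 2.96 and 11.5 CPM). The gland markers did not move together. Cxcl15 was lower in both aged-SP libraries (2.90 and 1.92 CPM) than in the young-SP libraries (8.69, 20.2 and 8.14 CPM), and Foxa2 overlapped between the groups (log2 fold change -0.02, adjusted p = 0.976 by edgeR). In Prss28, Prss29 and Sox9, as in Akr1c18, Hsd17b11 and Hsd17b1, the aged-SP libraries lay above every young-SP library, and their part in these results was not tested. The sum of the 8 stromal markers was 6304 to 7774 CPM in the aged-SP and 8403 to 11112 CPM in the young-SP libraries. That is the direction of Hsd17b4, but the stromal markers did not move together either. Col1a1 stood at 2412 and 2869 CPM in aged-SP replicates 1 and 4. It stood at 4382, 5193 and 5232 CPM in young-SP replicates 1, 2 and 4. Hand2, Pdgfra and Hoxa11 were also lower in both aged-SP libraries, while Dcn, Lum, Vim and Hoxa10 overlapped between the groups. The part of the stroma in these results was not tested either. The sums of the 8 epithelial markers (1279 to 1300 and 771 to 1596 CPM), the 6 myometrial markers (9037 to 11436 and 9417 to 14220 CPM) and the 6 leukocyte markers (335 to 371 and 314 to 446 CPM) overlapped when the groups were set side by side, aged-SP first. Within these lists, Krt18 (228 and 216 against 191, 157 and 165 CPM) and Elf3 (64.0 and 56.5 against 54.9, 21.0 and 28.3 CPM) were higher in both aged-SP libraries. Acta2 was lower in both (2475 and 2940 against 3025, 3539 and 4268 CPM), and the other markers of these lists overlapped. The part of these cell types was not tested.

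Other tissues that express these enzymes were also checked. Of the ovary and corpus luteum markers 9 of 10 were in the table, and 7 of the 9 stayed under 1 CPM in every library. Their sum, carried by Star and Inha, was 36.3 to 71.7 CPM in the aged-SP and 22.5 to 43.4 CPM in the young-SP libraries. The sum was higher in aged-SP replicate 4 than in aged-SP replicate 1, and its part in these results was not tested. Of the adipose markers 5 of 6 were in the table, 4 of the 5 stayed under 1 CPM, and the sum was 3.20 to 4.09 CPM in the aged-SP and 4.50 to 6.88 CPM in the young-SP libraries. The sum of the oviduct markers overlapped between the groups (111.5 to 151.3 and 58.8 to 259.5 CPM, aged-SP first). So did that of the vagina and cervix markers (2.17 to 4.96 and 2.42 to 4.003 CPM). Within the oviduct list, Pax8 was higher in both aged-SP libraries (54.8 and 27.4 CPM) than in the young-SP libraries (25.4, 14.4 and 16.96 CPM). Pax8 was called by DESeq2 (log2 fold change 1.12, adjusted p = 0.0495) and not by edgeR (1.12, adjusted p = 0.202). Tekt1, under 1 CPM in every library, was lower in both aged-SP libraries, and the other oviduct markers overlapped. The part of the oviduct in these results was not tested. Of the male accessory gland markers 1 of 6 was in the table, at 0 to 0.181 CPM.

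To compare levels between genes, the deposited FPKM values (counts scaled to gene length and library total) were used. By the median over the 5 libraries, Hsd17b4 was highest at 38.8 FPKM (30.2 to 40.8) and Hsd17b11 next at 31.8 FPKM (30.9 to 64.6), and their ranges overlapped. Srd5a1 followed at 2.41 FPKM (1.88 to 10.95), below the whole range of Hsd17b11. The ranges of Srd5a1, of Hsd11b1 at 2.205 FPKM (0.866 to 79.1) and of Hsd17b7 at 1.69 FPKM (1.51 to 2.86) each overlapped the next. Hsd17b1 at 0.464 FPKM (0.347 to 0.715) lay below the whole range of Hsd17b7 and overlapped Hsd17b2 at 0.342 FPKM (0 to 0.452), which overlapped Akr1c18 at 0.154 FPKM (0 to 26.3). The order of the medians was the same in TPM for all 8.

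Within single libraries the order moved. Hsd17b4 ranked 1 in each of the 3 young-SP libraries, Hsd11b1 ranked 1 in aged-SP replicate 1, and Hsd17b11 ranked 1 in aged-SP replicate 4. Akr1c18 ranked 7 or 8 in the young-SP libraries and 4 and 3 in aged-SP replicates 1 and 4. The highest library exceeded the lowest 91.3-fold for Hsd11b1 in FPKM but only 1.35-fold for Hsd17b4.

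**Figure D2:**
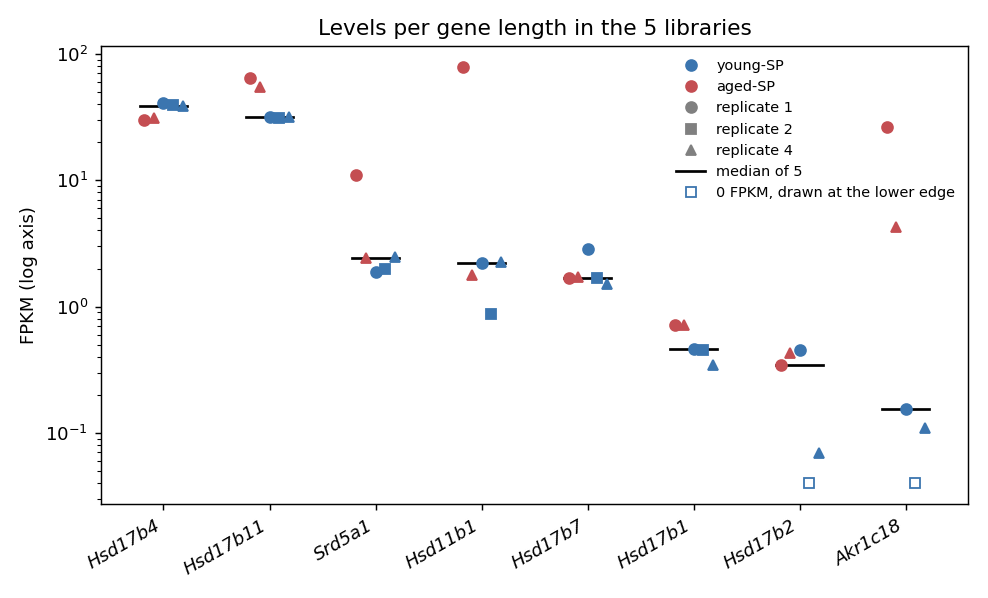
FPKM of the 8 enzymes on a log axis, in order of the median over 5 libraries (black lines); blue points are young-SP and red points aged-SP libraries, shapes give the replicate number, and open symbols at the lower edge are libraries at 0. Hsd17b4 and Hsd17b11 lie above 30 FPKM in every library, and the spread is widest for Hsd11b1 and Akr1c18.

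Hsd17b1 and Hsd17b7 are the enzymes of the list that reduce estrone to estradiol, the active estrogen, and Hsd17b7 also serves cholesterol synthesis. Hsd17b1 (chromosome 11, 101078411 to 101080527, plus strand, GRCm38) had 16 and 15 counts in aged-SP replicates 1 and 4, and 10, 10 and 7 counts in young-SP replicates 1, 2 and 4. Aged-SP libraries averaged 0.963 ± 0.0056 CPM (SD, n = 2), and young-SP libraries 0.561 ± 0.0832 CPM (SD, n = 3). Both aged-SP libraries lay above all young-SP libraries, at counts too low for a precise ratio. The difference was 0.77 on the log2 scale (SE, standard error, 0.36, adjusted p = 0.318 by edgeR's quasi-likelihood test), and the gene did not pass with DESeq2 (adjusted p = 0.645).

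Hsd17b7 (chromosome 1, 169949535 to 169969241, minus strand) stood at 8.71 and 8.70 CPM in aged-SP replicates 1 and 4. In the young-SP group it stood at 14.7, 8.39 and 7.74 CPM in replicates 1, 2 and 4, so young-SP replicate 1 was high and the groups overlapped. Its log2 fold change was -0.24 (SE 0.32, adjusted p = 0.722 by edgeR). Without young-SP replicate 1 its sign turned, to 0.096 (adjusted p = 0.801 by edgeR).

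Hsd17b2, Hsd17b4 and Hsd17b11 work in the oxidative direction. Hsd17b2 turns estradiol into estrone, Hsd17b4 is the peroxisomal multifunctional protein of fatty acid breakdown that also oxidises estradiol, and Hsd17b11 is a lipid droplet protein that oxidises androgens. Hsd17b2 (chromosome 8, 117701904 to 117759027, plus strand) had 11 and 13 counts in aged-SP replicates 1 and 4 and 14, 0 and 2 counts in young-SP replicates 1, 2 and 4. Young-SP replicate 1 was therefore level with the aged-SP group while the other young-SP libraries were at or near 0, and the groups overlapped. A count of 0 at these depths allows up to 3 counts, which is 0.177 to 0.200 CPM. The fitted log2 fold change was 1.14 (SE 1.15, adjusted p = 0.629 by edgeR) and 3.40 once young-SP replicate 1 was left out (edgeR adjusted p = 0.118).

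Hsd17b4 (chromosome 18, 50128201 to 50196269, plus strand) stood at 104.0 and 105.5 CPM in aged-SP replicates 1 and 4. In young-SP replicates 1, 2 and 4 it stood at 140.1, 130.9 and 133.0 CPM. Every aged-SP library lay below every young-SP library, and both groups were tight. Aged-SP libraries averaged 104.7 ± 1.05 CPM (SD, n = 2) and young-SP libraries 134.7 ± 4.82 CPM (SD, n = 3). On the log2 scale this was -0.36 (SE 0.08, adjusted p = 0.119 by edgeR). By DESeq2 it passed by adjusted p (0.0141) at a log2 fold change of -0.37, a size under the call threshold. With DESeq2 this was lost when any library was left out: the adjusted p was 0.442 and 0.357 without aged-SP replicate 1 or 4, and 0.158, 0.283 and 0.255 without young-SP replicate 1, 2 or 4. The log2 fold change itself held between -0.38 and -0.35 by edgeR in these 5 fits.

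Hsd17b11 (chromosome 5, 103989762 to 104021919, minus strand) was the enzyme with the smallest unadjusted p of the list. It stood at 213.4 and 178.1 CPM in aged-SP replicates 1 and 4, and at 104.6, 98.9 and 103.9 CPM in young-SP replicates 1, 2 and 4. Both aged-SP libraries lay well above the young-SP group, whose 3 libraries were close together. Aged-SP libraries averaged 195.8 ± 24.9 CPM (SD, n = 2) and young-SP libraries 102.5 ± 3.10 CPM (SD, n = 3), a ratio of 1.91. The log2 fold change was 0.93 (SE 0.11, adjusted p = 0.0628 by edgeR), just under the size and just over the p needed for a call. DESeq2 gave 0.93 with an adjusted p of 2.63e-08, which passed by adjusted p alone. By DESeq2 that held in each fit with a library left out, with the largest adjusted p at 0.00187, without aged-SP replicate 1. Leaving out aged-SP replicate 4 took the DESeq2 log2 fold change to 1.06 (adjusted p = 9.01e-07), past both thresholds. By edgeR the adjusted p was 0.0309 without young-SP replicate 1, and it stayed over the threshold in the other 4 such fits, at 0.240 and 0.0724 without aged-SP replicate 1 or 4 and at 0.213 and 0.227 without young-SP replicate 2 or 4.

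Per length, Hsd17b11 exceeded Hsd17b4 in the aged-SP libraries, with FPKM ratios of 2.14 and 1.76 in replicates 1 and 4. In the young-SP libraries the order was the opposite, with ratios of 0.778, 0.787 and 0.814 in replicates 1, 2 and 4. This ratio was chosen after the values were seen and was not tested. The summed FPKM of the oxidative enzymes (Hsd17b2, Hsd17b4 and Hsd17b11) exceeded that of the reducing enzymes (Hsd17b1 and Hsd17b7) 39.6-fold and 35.5-fold in aged-SP replicates 1 and 4, and 22-fold, 33-fold and 38-fold in young-SP replicates 1, 2 and 4. The groups overlapped in that ratio, in which young-SP replicate 1 was lowest. The sums cover only enzymes of the chosen list. The related dehydrogenases Hsd17b10 (60.4 to 74.9 FPKM over the libraries) and Hsd17b12 (23.0 to 38.3 FPKM) were in neither sum. The ratio therefore does not measure the balance of making and inactivating estradiol in the uterus.

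Akr1c18 and Srd5a1 both act on progesterone. Akr1c18 encodes the hydroxysteroid dehydrogenase that inactivates progesterone and whose rise in the ovary ends luteal function, and Srd5a1 encodes a reductase of progesterone and testosterone. Akr1c18 (chromosome 13, 4132615 to 4150654, minus strand) had 531 and 80 counts in aged-SP replicates 1 and 4, which are 32.1 and 5.12 CPM. In young-SP replicates 1, 2 and 4 it had 3, 0 and 2 counts, at most 0.188 CPM. Both aged-SP libraries were high and every young-SP library was at or under 3 counts, with a wide gap within the aged-SP group as well.

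Over the summed counts of the groups, 611 against 5, Akr1c18 was 182-fold higher in the aged-SP group, with a 95% interval of 77.5 to 562 that covers counting error only. Its log2 fold change was 7.37 (SE 1.13), the largest of the 8, and it did not pass by edgeR (adjusted p = 0.0757). It rose by DESeq2's Wald test (log2 fold change 7.45, adjusted p = 4.74e-05), which kept its call in each fit with a library left out, with adjusted p between 2.55e-21 and 0.00743. By edgeR it was called without aged-SP replicate 4 (8.16, adjusted p = 0.0490) and not without aged-SP replicate 1 (5.50, adjusted p = 0.240). Of its stretches of 50 bases, 0.581% occur in transcripts of another gene, Akr1cl.

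Srd5a1 (chromosome 13, 69573449 to 69611442, minus strand) stood at 32.2 and 7.04 CPM in aged-SP replicates 1 and 4. It stood at 5.50, 5.62 and 7.28 CPM in young-SP replicates 1, 2 and 4. Only aged-SP replicate 1 was high, since aged-SP replicate 4 lay within the young-SP range. The log2 fold change was 1.68 (SE 0.60, adjusted p = 0.231 by edgeR and 0.0576 by DESeq2). It was 0.20 by edgeR without aged-SP replicate 1 (adjusted p = 0.816) and 2.39 without aged-SP replicate 4 (adjusted p = 0.0687), where DESeq2 called it (2.39, adjusted p = 8.73e-09). Of its exonic bases, 16.4% overlap Gm17108 on the same strand, so reads there cannot be assigned to one gene.

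Hsd11b1 regenerates corticosterone, the active glucocorticoid of the mouse, from its inactive form, with reducing power that H6pd supplies inside the endoplasmic reticulum. Hsd11b1 (chromosome 1, 193221634 to 193264075, minus strand) had 5625 and 119 counts in aged-SP replicates 1 and 4, which are 340.0 and 7.61 CPM. It had 151, 61 and 144 counts in young-SP replicates 1, 2 and 4, which are 9.44, 3.61 and 9.61 CPM. A single library, aged-SP replicate 1, was high, and aged-SP replicate 4 lay inside the range of the young-SP group.

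Hsd11b1 averaged 173.8 ± 235.1 CPM (SD, n = 2) over the aged-SP and 7.55 ± 3.42 CPM (SD, n = 3) over the young-SP libraries, a difference smaller than the SD of the aged-SP group. On the log2 scale the difference was 4.53 (SE 1.40, adjusted p = 0.185 by edgeR). DESeq2 called it (4.52, adjusted p = 0.0462). Without aged-SP replicate 1 the log2 fold change was 0.011 by edgeR (adjusted p = 0.996) and -0.0042 by DESeq2. DESeq2 also lost the call when a young-SP library was left out (4.71, 4.18 and 4.74 without replicates 1, 2 and 4, with adjusted p of 0.121, 0.315 and 0.181), and kept it without aged-SP replicate 4 (5.49, adjusted p = 1.03e-24).

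**Figure D3:**
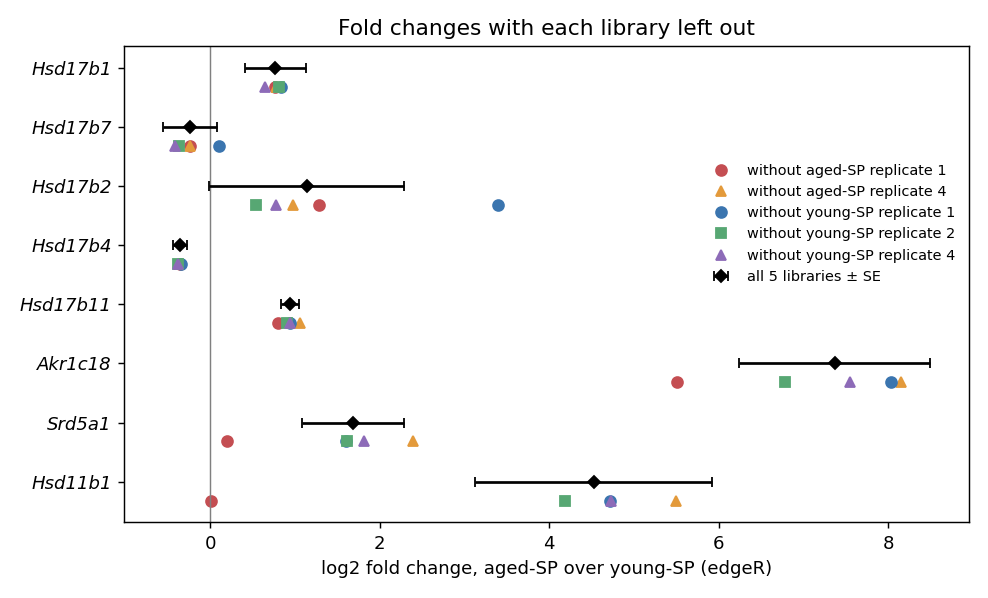
Log2 fold change of each enzyme by edgeR, aged-SP over young-SP; black diamonds are the fit of all 5 libraries with its standard error, and coloured points the fits with 1 library left out. The points for Hsd11b1 and Srd5a1 move to 0.011 and 0.20 without aged-SP replicate 1, that for Hsd17b2 to 3.40 without young-SP replicate 1, and those for Hsd17b4 and Hsd17b11 stay close together.

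In the 2 genes that work beside Hsd11b1, H6pd and Hsd11b2, the groups did not overlap, as in 38.8% of all tested genes. H6pd, the source of NADPH for Hsd11b1, stood at 366.0 and 142.6 CPM in aged-SP replicates 1 and 4 and at 121.5, 77.0 and 91.5 CPM in young-SP replicates 1, 2 and 4. As for Hsd11b1, aged-SP replicate 1 was highest, but here aged-SP replicate 4 was also above the young-SP group. H6pd was called by DESeq2 (log2 fold change 1.39, adjusted p = 0.0109) and not by edgeR (1.40, adjusted p = 0.174). The DESeq2 call was lost without aged-SP replicate 1 (0.55, adjusted p = 0.598) and when young-SP replicate 1, 2 or 4 was left out (adjusted p of 0.119, 0.0928 and 0.0586), where the log2 fold change stayed at 1.59, 1.25 and 1.36.

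Hsd11b2, which inactivates corticosterone, stood at 175.1 and 235.2 CPM in aged-SP replicates 1 and 4 and at 271.8, 287.6 and 266.6 CPM in young-SP replicates 1, 2 and 4. Both aged-SP libraries were lower than all young-SP libraries, with a difference of -0.42 on the log2 scale (SE 0.15, adjusted p = 0.217 by edgeR). Per length, Hsd11b2 exceeded Hsd11b1 in all 5 libraries. The FPKM ratio of Hsd11b1 to Hsd11b2 was 0.841 in aged-SP replicate 1, 0.0140 in aged-SP replicate 4, and 0.0150, 0.0054 and 0.0156 in young-SP replicates 1, 2 and 4. The ratio in aged-SP replicate 1 stood alone, and that of aged-SP replicate 4 lay among the young-SP libraries. The receptor of corticosterone, Nr3c1, had a log2 fold change of -0.05 (adjusted p = 0.885 by edgeR).

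**Figure D4:**
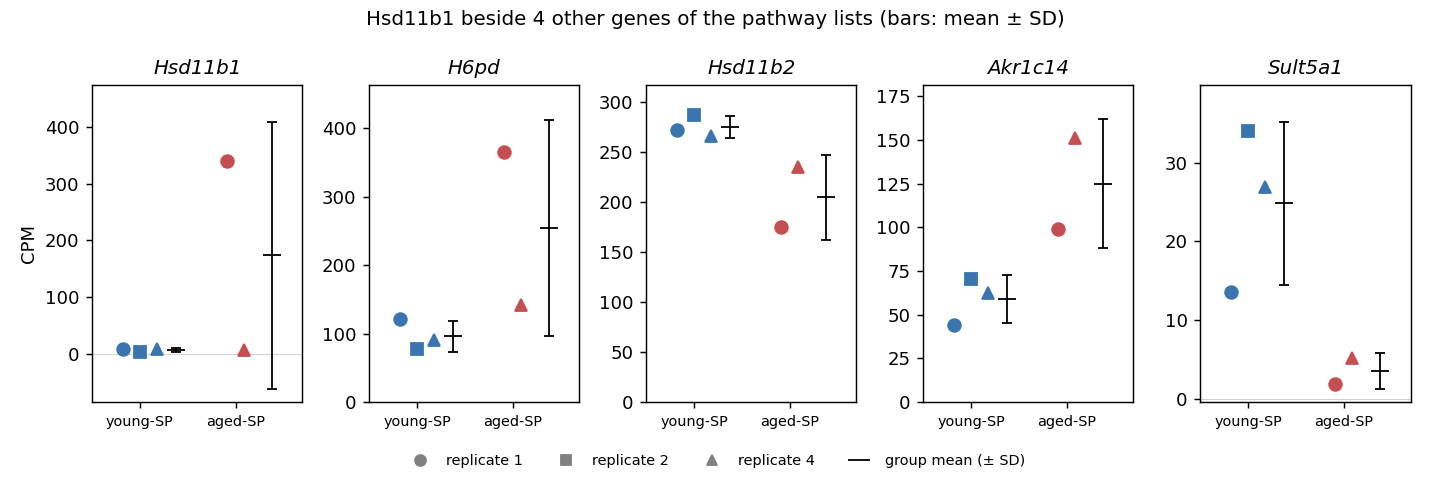
CPM of Hsd11b1 beside H6pd, Hsd11b2, Akr1c14 and Sult5a1, each panel with its own linear axis; blue points are young-SP and red points aged-SP libraries, shapes give the replicate number, and bars are the group mean ± SD. The groups do not overlap for the 4 other genes, with H6pd and Akr1c14 higher and Hsd11b2 and Sult5a1 lower in the aged-SP libraries. The same holds for 38.8% of all tested genes, and H6pd, Akr1c14 and Sult5a1 are shown because DESeq2 called them.

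The rest of the pathway was described with 6 lists holding 65 genes, of which 58 were in the table and 40 were tested. By edgeR 0 of the 40 were called, and 12 (6 higher and 6 lower) had an unadjusted p under 0.05. DESeq2 called 3 of the 40, H6pd and Akr1c14 higher and Sult5a1 lower, and by adjusted p alone it passed 6 (4 higher and 2 lower). The groups did not overlap for 14 of the 40, and the median log2 fold change was 0.012. The background shares are those given above.

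Among the other AKR1C genes and steroid reductases, 5 of 11 genes were tested, 0 were called by edgeR and 1 by DESeq2. Akr1c14, a hydroxysteroid dehydrogenase that acts on the products of Srd5a1, stood at 98.8 and 151.2 CPM in aged-SP replicates 1 and 4 and at 44.0, 70.2 and 62.7 CPM in young-SP replicates 1, 2 and 4. Both aged-SP libraries were higher than every young-SP library, and here aged-SP replicate 4 was the highest. It rose by DESeq2 (log2 fold change 1.08, adjusted p = 0.00419) but did not pass by edgeR (1.08, adjusted p = 0.129). The call by DESeq2 was lost without aged-SP replicate 4 (0.75, adjusted p = 0.247) and, by size alone, without young-SP replicate 1 (0.91, adjusted p = 0.00322). Akr1c19, of the same gene family, had a log2 fold change of 0.78 (adjusted p = 0.164 by edgeR).

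Among the sulfate genes, 9 of 10 were tested, 0 were called by edgeR and 1 by DESeq2. Sult5a1, a member of the cytosolic sulfotransferase family, stood at 1.93 and 5.18 CPM in aged-SP replicates 1 and 4 and at 13.6, 34.0 and 27.0 CPM in young-SP replicates 1, 2 and 4. The aged-SP libraries were both lower, and young-SP replicate 1 was the nearest of its group to them. Sult5a1 fell by DESeq2 (log2 fold change -2.81, adjusted p = 7.74e-06), also in each fit with a library left out, and did not pass by edgeR (-2.81, adjusted p = 0.108). Sult1a1, a phenol sulfotransferase, had a log2 fold change of -0.61 (adjusted p = 0.126 by edgeR and 0.0191 by DESeq2). Of the enzymes that make the sulfate donor, Papss2 had 0.73 (adjusted p = 0.132 by edgeR and 0.0448 by DESeq2) and Papss1 -0.05 (adjusted p = 0.884 by edgeR). Sumf1, which activates sulfatases, had 0.02 (adjusted p = 0.943 by edgeR).

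Of the genes that make steroids from cholesterol, 7 of 16 were tested and 0 were called by edgeR or DESeq2. Cyp11a1, which takes the first enzymatic step, reached at most 0.895 CPM and Hsd3b1 at most 0.0668 CPM in any library. Star, which moves cholesterol into mitochondria, overlapped between the groups (log2 fold change 0.91, adjusted p = 0.346 by edgeR), and Cyb5a, a cofactor of steroid lyase activity, had -0.27 (adjusted p = 0.198 by edgeR). Of the other dehydrogenases, 4 of 9 were tested, and Hsd17b10, a mitochondrial enzyme, had -0.22 (adjusted p = 0.256 by edgeR). Of the genes for hydroxylation, methylation and glucuronidation of estrogens, 7 of 10 were tested, with 0 called and 0 at an unadjusted p under 0.05.

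Of the steroid receptors, 8 of 9 were tested and 0 were called by either tool. Nr3c2, the mineralocorticoid receptor, which also binds corticosterone, stood at 8.34 and 9.15 CPM in aged-SP replicates 1 and 4 and at 4.82, 5.20 and 5.41 CPM in young-SP replicates 1, 2 and 4. Its log2 fold change was 0.77 (adjusted p = 0.122 by edgeR and 0.0414 by DESeq2). The estrogen receptor Esr1 had 0.28 (adjusted p = 0.229 by edgeR) and the progesterone receptor Pgr -0.32 (adjusted p = 0.270 by edgeR). The groups did not overlap for 3 of the 8, which were Nr3c2, Esr1 and Pgr, near the share of 38.8% of all tested genes.

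**Figure D5:**
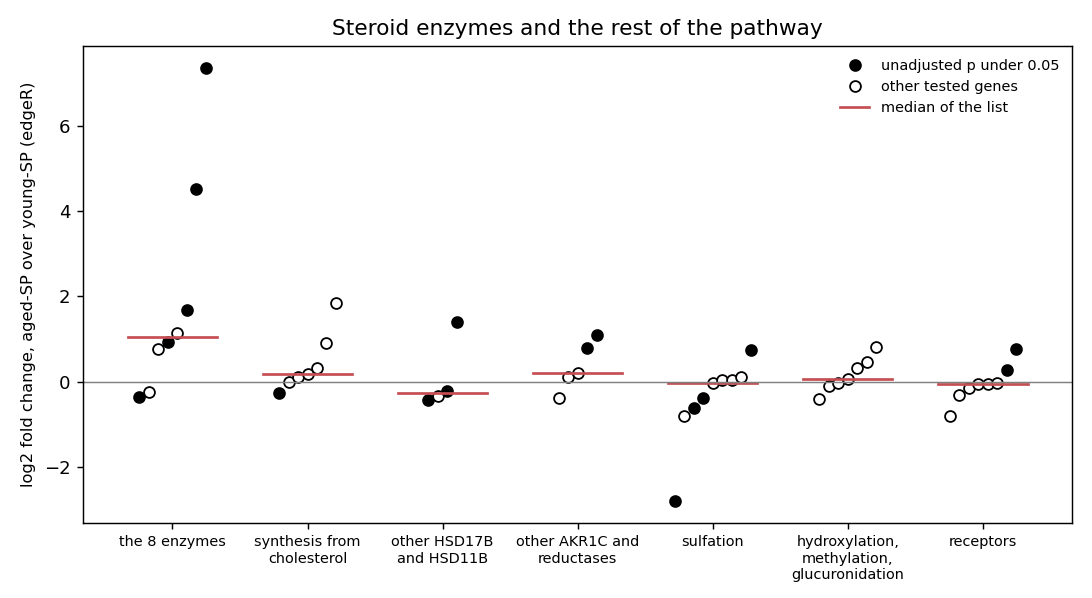
Log2 fold change by edgeR (aged-SP over young-SP) of each tested gene, by list; filled points have an unadjusted p under 0.05 and red lines are list medians. The 8 enzymes have a median of 1.04 (0.48 without aged-SP replicate 1) and reach 7.37 (Akr1c18). The 40 genes of the 6 other lists have a median of 0.012 and reach -2.81 (Sult5a1). All lists were chosen with earlier results of these data known, so the medians are descriptions only.

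For the 2 enzymes with the largest fold change, the nearest profiles were sought among tested genes with a mean of at least 50 counts, by the root mean square (RMS) difference of centred log2 CPM over the 5 libraries. For Akr1c18 they were Erbb4, a receptor of the epidermal growth factor family (RMS 0.52), Pinlyp (RMS 0.61) and Guca2b, the precursor of uroguanylin (RMS 0.85). Erbb4 stood at 15.11 and 1.73 CPM in aged-SP replicates 1 and 4 and was at 0 in all 3 young-SP libraries. For Hsd11b1 they were Cyp26a1, which breaks down retinoic acid (RMS 0.43), and the chemokines Cxcl1 (RMS 0.55) and Ccl2 (RMS 0.66). Cyp26a1 stood at 103.8 CPM in aged-SP replicate 1 and between 2.30 and 3.40 CPM in the other 4 libraries. These are descriptions over 5 libraries, chosen by the pattern itself.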

How the data were processed

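RNA of whole uteri was measured in 5 libraries, 2 of the aged-SP and 3 of the young-SP group, grouped by the sample labels. Libraries were made with the NEBNext Ultra kit, which does not mark strand. The submitters' processing notes name HISAT2 2.1.0, Bowtie2 2.2.3 and HTSeq 0.6.0. The authors deposited raw counts per gene, which were used for all tests. They also deposited FPKM, made from the same counts and gene lengths as checked on the values (relative spread of the implied length at most 2.33e-07), which was used here only to compare levels between genes. The deposited table also holds the authors' own DESeq2 comparison (log2 fold changes and p-values), which was not used. There were 0 unused columns of values per sample.

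Counts were analysed with edgeR 4.0.16 (filterByExpr, TMM factors of 0.99 to 1.02, glmQLFit with legacy = TRUE, glmQLFTest), DESeq2 1.42.0, limma 3.58.1 (all under R 4.3.3) and Python 3.11.15 (numpy 2.4.6, pandas 2.3.3, scipy 1.17.1, matplotlib 3.10.9). P-values were adjusted over all tested genes by Benjamini-Hochberg. Standard errors are the log2 fold change divided by the square root of F. Log2 CPM has a prior count of 2. The tests were tested on simulated data. Intervals and count limits cover counting error only, since PCR reads are not independent molecules. Total counts of 15071914 to 16728601 put 3 counts at 0.177 to 0.200 CPM. Positions are on GRCm38 and agree in GENCODE M21 for all 8 enzymes.

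The members and lists were chosen with earlier results of these data known. Named are the members, the pathway genes called by either tool, up to 3 per list by unadjusted edgeR p, the sources of a donor or cofactor and the receptors of a product (Papss1, Papss2, H6pd, Sumf1, Esr1, Pgr, Nr3c1), the 3 nearest profiles of the 2 enzymes with the largest change, and markers by list. Hsd3b1 and Cyp11a1 were named after their values were seen. Alternatives were other scalings, tests and filters, the adjusted p alone, a replicate block, TPM in place of FPKM, and each library left out. Where 1 aged-SP library was left, it was assumed to vary like the young-SP libraries. The DESeq2 fits and the median of the enzymes with a library left out were chosen after seeing the data.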

Additional observations from a re-analysis of the deposited data

How the results depend on the processing

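With 2 and 3 libraries, small differences of low genes such as Hsd17b1 and Hsd17b2 could not be resolved at this depth. The number of enzymes called, 0 by edgeR, was 2 by DESeq2 and 1 (Akr1c18) with no filter on low counts, and 0 to 1 with a library left out. It stayed 0 under DESeq2 size factors, library size alone, limma-voom, legacy = FALSE, at least 10 counts in every sample, the adjusted p alone and the replicate block. The number of all genes called, 25 by edgeR, was 632 by DESeq2, 203 with no filter, 2 with the replicate block and 1 to 578 with a library left out. The number of enzymes called by DESeq2, 2 with all libraries, was 1 when young-SP replicate 1, 2 or 4 was left out. The share of all genes that DESeq2 called in those fits was not counted, so the change is a description only. Over the fits with a library left out, Hsd17b7 ran from -0.41 to 0.096 by edgeR and from -0.41 to 0.10 by DESeq2, turning without young-SP replicate 1, and Hsd11b1 from -0.0042 to 5.49 by DESeq2, turning without aged-SP replicate 1; the cause was not tested. Of the enzymes' planned log2 fold changes under other settings, 96 kept direction and side of the threshold, 4 passed it and 1 reversed. The filter of at least 10 counts gave no value for Akr1c18, Hsd17b1 or Hsd17b2. Other scalings moved the median of all genes by at most 0.014. The 2 pairs that share a number correlated at 0.15 and 0.14 in their deviations from the group means. With 2 aged-SP libraries those deviations are exact opposites, so the correlations cannot decide whether the libraries are paired. The labels give no shared origin and do not exclude one. With the replicate block, the adjusted p by edgeR was 0.147 for Akr1c18 and 0.167 for Hsd17b11.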
